A study of Homo sapiens with 12 samples.

Results

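Described here are 9 genes of retinoic acid signalling (RARA, RARB, RARG, RXRA, CRABP1, CRABP2, STRA6, DHRS3 and CYP26A1): the receptors, the retinoid carriers and uptake receptor, and enzymes of retinoid turnover. They were taken by symbol from the 63241 genes of the count table, where each had 1 row. Human testicular germ cell tumour lines were compared: 2102 EP, an embryonal carcinoma line grown in DMEM, and TCam-2, a seminoma line grown in RPMI. Both were labelled wild type and received 15 µM I-BRD9, a compound that occupies the bromodomain of the chromatin remodelling subunit BRD9, or its solvent DMSO, for 24 h, with 3 replicates in each of the 4 groups. The labels name no added retinoid, each tumour type is represented by 1 line, and line and medium cannot be told apart. The replicates are called biological without a statement on separate cultures, so p-values measure the spread between these samples. The 12 libraries of 3′ ends held 7290335 to 10053366 estimated counts. A level is given below as CPM, the count scaled by library size and TMM. In CPM, 3 counts in 1 library corresponded to 0.297 to 0.409, and such a floor covers counting error only. Because 3′ ends were counted without a correction for where a transcript ends, levels are compared between groups and not between genes.

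Retinoic acid, the acid form of vitamin A, reaches a cell as retinol, which STRA6, a membrane receptor of the plasma retinol carrier, lets in. Enzymes turn retinol into retinal and retinal into retinoic acid, and DHRS3 runs the first step backwards by reducing retinal to retinol. The cytoplasmic proteins CRABP1 and CRABP2 bind retinoic acid, and CRABP2 is known for passing it to the nucleus. There the receptors RARA, RARB and RARG, each paired with an RXR such as RXRA, sit on DNA, hold corepressors without ligand and coactivators with it, and CYP26A1 hydroxylates retinoic acid so that it is cleared. Germ cells take retinoic acid as a cue for meiosis, and embryonal carcinoma cells are a classical system for differentiation by it.

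Of the 9 genes, 7 passed the filter on low counts and were tested among 15614 genes. RARB and CYP26A1 did not pass. Differences are log2 fold changes ± standard error from edgeR's quasi-likelihood test, adjusted by Benjamini and Hochberg over all genes tested. Called means an adjusted p under 0.05. In bulk RNA, fewer cells of a type and less RNA per cell cannot be told apart.

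The labels were checked on marker genes. With DMSO, all 7 tested seminoma markers of 8 listed were higher in TCam-2, and their summed level was 1503 to 2008 CPM there against 160 to 241 CPM in 2102 EP, where SOX17 and PRAME had mean levels below 0.1 CPM. Of the 8 embryonal carcinoma markers, 6 were lower in TCam-2 and 2, NANOG and POU5F1, were higher. The counts of POU5F1 and TDGF1 were not whole in 12 libraries and those of NANOG in 8. Reads of these 3 markers were therefore shared with other genes, and their values are uncertain. With I-BRD9 all 8 of these markers fell in both lines, and their sum went from 3378 to 3455 CPM to 1410 to 1484 CPM in 2102 EP and from 1689 to 1768 CPM to 567 to 572 CPM in TCam-2. Of 6 fibroblast markers, 3 were tested. COL1A2 fell in both lines, in TCam-2 by 0.69 from a mean of 150 CPM and in 2102 EP from 2.12 to 0.845 CPM. COL1A1 and PDGFRB were not called with I-BRD9 in either line. In 2102 EP their means went the other way, from 16.4 to 20.5 CPM and from 1.71 to 2.72 CPM, while both were lower in treated TCam-2. DCN had no count in either DMSO group or in treated 2102 EP. The sum of the fibroblast markers was 17.6 to 25.2 CPM in 2102 EP, 168 to 179 CPM in TCam-2 with DMSO and 87.9 to 135 CPM with I-BRD9. Blood cell markers summed to at most 2.45 CPM in any library. Of the 7 tested seminoma markers, 5 fell in TCam-2 with I-BRD9, 1 was not called, and KIT rose from 26.5 to 49.4 CPM. In 2102 EP 1 of these 7 fell and 6 were not called. Many of the markers thus moved with the treatment, as did several of the 9 genes, and the part of the markers in the results below was not tested. One library stood apart within its group: 2102 EP with I-BRD9, replicate 1, had the lowest total, and on the second principal component it lay at -50.5 against -37.2 and -40.6 for the other replicates.

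Retinoic acid receptors bind a direct repeat of a short motif, and the start regions of the 9 genes were read for it in RefSeq (GRCh38.p14), from 250 bases before to 50 bases after each annotated start. All 9 genes matched, with 22 windows of 300 bases. Both strands were searched for 2 copies in the same direction, 5 bases apart (DR5), or 1 or 2 bases apart (DR1, DR2). The motif forms were the consensus AGGTCA and 3 common variants: AGTTCA is the first, GGGTCA is the second and GGTTCA is the third. A DR5 match occurred in 2 of the 22 windows, 1 of RARB and 1 of CYP26A1, against 31 of all 35116 windows (0.0883%). No window of the 9 genes held DR1 (0.131% of all windows) or DR2 (0.0399%). The RARB and CYP26A1 windows are shown because these genes are textbook targets of retinoic acid and are also the pair at the limit of detection here, and that of CRABP1 because it is the gene whose response separated the lines most. In capitals is the DR5 match, with its spacer. The RARB window is chr3:25428013-25428312 on the plus strand, the CYP26A1 window chr10:93073643-93073942 on the plus strand, and the CRABP1 window chr15:78340103-78340402 on the plus strand.
RARB: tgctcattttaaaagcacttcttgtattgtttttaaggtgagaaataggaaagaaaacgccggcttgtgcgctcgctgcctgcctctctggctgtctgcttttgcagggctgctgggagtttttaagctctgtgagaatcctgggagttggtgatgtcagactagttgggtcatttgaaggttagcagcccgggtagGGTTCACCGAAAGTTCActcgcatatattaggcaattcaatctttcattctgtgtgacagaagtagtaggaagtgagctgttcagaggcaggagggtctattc
CYP26A1: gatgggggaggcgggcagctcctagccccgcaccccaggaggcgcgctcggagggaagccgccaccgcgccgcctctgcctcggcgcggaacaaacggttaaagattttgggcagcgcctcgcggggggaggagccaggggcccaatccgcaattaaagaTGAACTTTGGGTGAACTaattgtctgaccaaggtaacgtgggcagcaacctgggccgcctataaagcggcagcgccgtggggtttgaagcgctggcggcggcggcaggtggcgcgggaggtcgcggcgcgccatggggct
CRABP1: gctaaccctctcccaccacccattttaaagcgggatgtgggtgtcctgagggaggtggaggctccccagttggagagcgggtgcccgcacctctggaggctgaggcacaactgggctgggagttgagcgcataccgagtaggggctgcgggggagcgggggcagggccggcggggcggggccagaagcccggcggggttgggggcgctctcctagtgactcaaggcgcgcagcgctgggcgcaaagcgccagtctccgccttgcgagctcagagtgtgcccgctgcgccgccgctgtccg
In RARB the first base of the match lay 53 bases before the start. In CYP26A1 it lay 90 bases before the start and reads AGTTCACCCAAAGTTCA on the other strand. The CRABP1 window has no capitals because it held no DR5 match. It also held none of the 4 motif forms as a single copy, which is common, since only 38.6% of all windows held at least 1. These matches describe the letters only, since no binding was measured.

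RARA, the most broadly expressed RAR (ENSG00000131759, chr17:40309192-40357643, plus strand, GRCh38), was the only one of the 3 tested receptors called different between the lines. With DMSO its levels in replicates 1 to 3 were 6.75, 5.19 and 5.11 CPM in 2102 EP and 3.07, 2.76 and 2.08 CPM in TCam-2. With I-BRD9 they were 6.68, 5.51 and 6.58 CPM in 2102 EP and 3.76, 3.96 and 3.60 CPM in TCam-2. The lines did not overlap under either treatment, and the lowest 2102 EP library lay above the highest TCam-2 library. TCam-2 was lower by -1.10 ± 0.26 with DMSO (adjusted p = 0.000717 by edgeR) and by -0.72 ± 0.24 with I-BRD9 (adjusted p = 0.0132). The response to I-BRD9 was not called: it was 0.13 ± 0.24 in 2102 EP, where the groups overlapped, and 0.51 ± 0.26 in TCam-2 (adjusted p = 0.149), where every treated library lay above every DMSO library. The 95% interval in TCam-2 ran from -0.04 to 1.06, and the difference between the lines was 0.38 ± 0.35 (adjusted p = 0.553).

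RARG (ENSG00000172819, chr12:53210567-53232980, minus strand) was the flattest of the 7 tested genes. It lay at 5.49 ± 0.64 CPM (SD, n = 3) in 2102 EP with DMSO, 5.13 ± 0.66 CPM with I-BRD9, 5.38 ± 1.12 CPM in TCam-2 with DMSO and 4.90 ± 0.31 CPM with I-BRD9. All 4 groups overlapped. Its response was -0.11 ± 0.24 in 2102 EP (adjusted p = 0.762, 95% interval -0.59 to 0.38) and -0.13 ± 0.23 in TCam-2 (adjusted p = 0.729, interval -0.62 to 0.36). The lines differed by -0.04 ± 0.23 with DMSO (adjusted p = 0.906) and by -0.06 ± 0.24 with I-BRD9 (adjusted p = 0.842).

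RXRA, the common partner of the RARs (ENSG00000186350, chr9:134317098-134440585, plus strand), had levels of 23.5, 26.4 and 22.9 CPM in 2102 EP with DMSO and 26.0, 26.4 and 20.5 CPM with I-BRD9. In TCam-2 they were 21.0, 20.5 and 23.6 CPM with DMSO and 28.3, 26.3 and 26.2 CPM with I-BRD9. The 2102 EP groups overlapped, whereas the treated TCam-2 libraries all lay above those with DMSO. The response was 0.00 ± 0.13 in 2102 EP (adjusted p = 0.987) and 0.31 ± 0.13 in TCam-2 (adjusted p = 0.0661), with a difference of 0.31 ± 0.18 (adjusted p = 0.298). The TCam-2 value passed the threshold in 4 of 20 alternative fits, among them the fit without scaling beyond library size (0.39, adjusted p = 0.0202) and that without 2102 EP, I-BRD9, replicate 3 (adjusted p = 0.0492). The lines were not called different with DMSO (-0.16 ± 0.13, adjusted p = 0.288) or with I-BRD9 (0.15 ± 0.13, adjusted p = 0.322).

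RARB, an RAR whose own gene is a target of retinoic acid (ENSG00000077092, chr3:25174332-25597932, plus strand), was near the limit of detection. The 3 libraries of a group held together 7 counts in 2102 EP with DMSO, 3 with I-BRD9, 24 in TCam-2 with DMSO and 18 with I-BRD9. In TCam-2 the levels were 0.944, 0.849 and 0.980 CPM with DMSO and 0.989, 0.360 and 0.580 CPM with I-BRD9, while no 2102 EP library exceeded 0.472 CPM. With DMSO the lines did not overlap, and the ratio of TCam-2 to 2102 EP was 3.30 (95% counting interval 1.38 to 9.06). With I-BRD9 the ratio was 5.83 (1.70 to 30.9), again without overlap. The ratio of I-BRD9 to DMSO was 0.408 (0.0681 to 1.79) in 2102 EP and 0.722 (0.369 to 1.39) in TCam-2, so no response was detectable at this depth. In the edgeR fit without the filter, none of these was called (adjusted p = 0.606 and 0.802 for the responses, 0.141 and 0.0547 for the lines). The 3′ end of RARB overlaps TOP2B on the opposite strand, which had 10183 counts over the 12 libraries against 51.5 for RARB. Since no use of strand is stated, reads of the pair cannot be told apart, and RARB is uncertain.

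**Figure D1:**
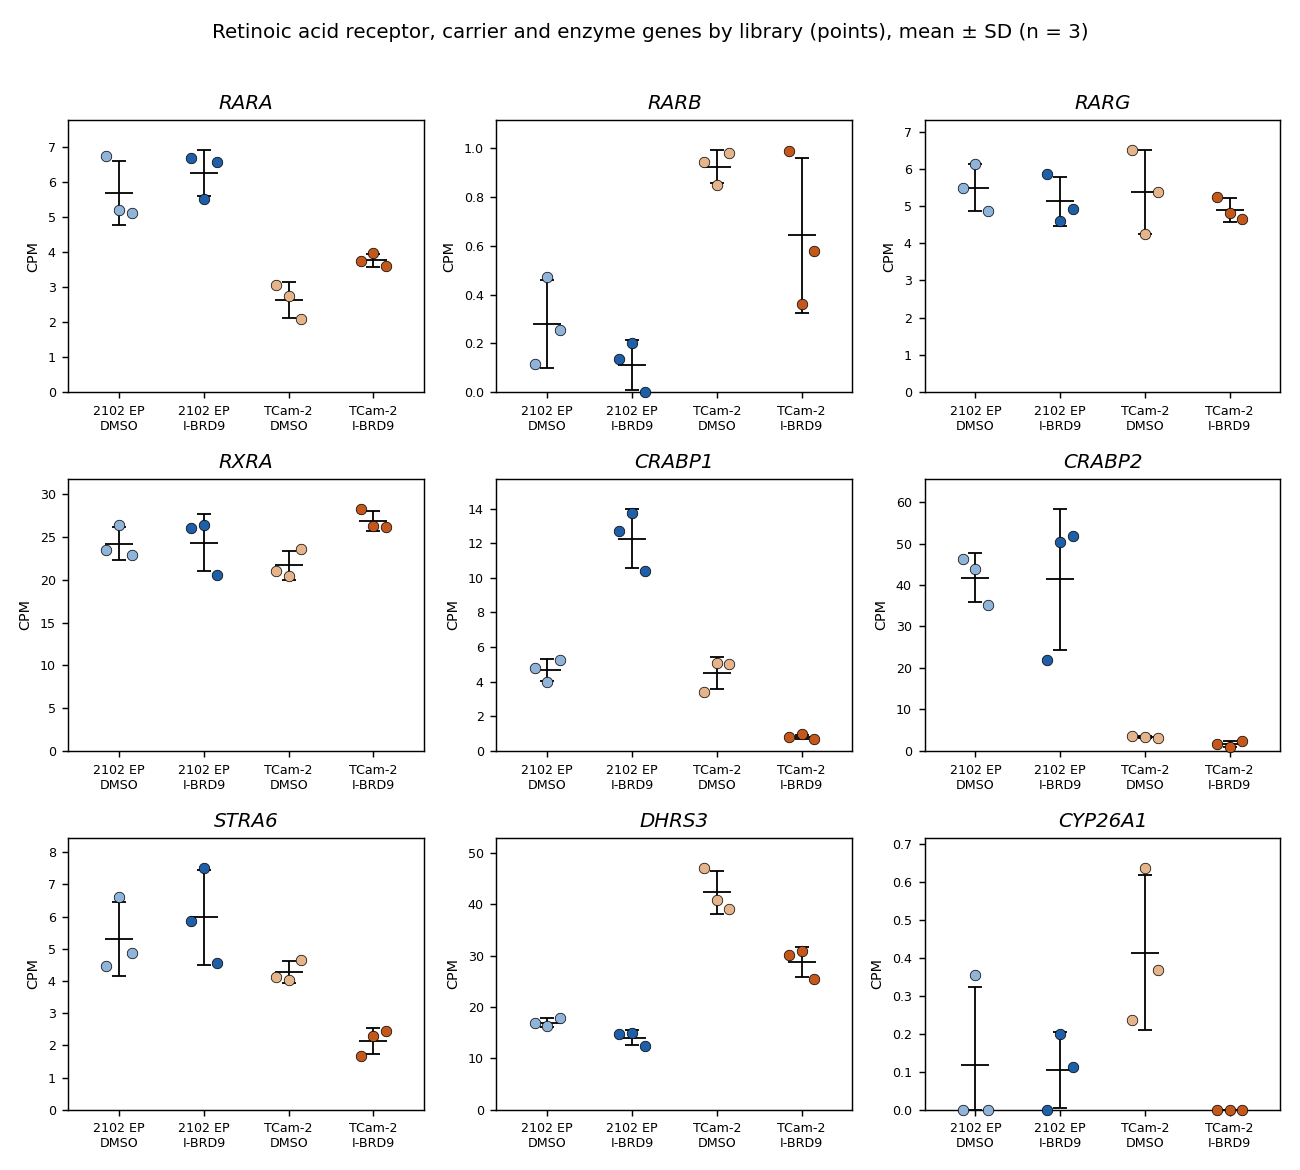
Level of each of the 9 genes in every library (points, CPM, linear axes from 0) by group, with the mean and SD over 3 replicates (lines). CRABP1 is higher with I-BRD9 in 2102 EP and lower in TCam-2, DHRS3 is higher and CRABP2 lower in TCam-2 than in 2102 EP, and CYP26A1 has no count in treated TCam-2.

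CRABP1 (ENSG00000166426, chr15:78340324-78348230, plus strand) moved in opposite directions in the lines. In 2102 EP it rose from 4.81, 4.01 and 5.24 CPM with DMSO to 12.7, 13.7 and 10.4 CPM with I-BRD9. In TCam-2 it fell from 3.42, 5.09 and 5.02 CPM to 0.791, 0.961 and 0.696 CPM. The DMSO groups of the lines overlapped, at 4.69 ± 0.63 and 4.51 ± 0.94 CPM (SD, n = 3), and the treated groups lay on either side of them without overlap. The rise in 2102 EP was 1.39 ± 0.23 (adjusted p = 4.7e-05), which is 2.62-fold, and the fall in TCam-2 was -2.45 ± 0.31 (adjusted p = 1.55e-06), which is 5.47-fold. The difference between the responses was -3.84 ± 0.38 (adjusted p = 1.8e-07). The lines differed by -0.05 ± 0.24 with DMSO (adjusted p = 0.872, 95% interval -0.55 to 0.45) and by -3.89 ± 0.29 with I-BRD9 (adjusted p = 6.26e-11). Both responses and their difference were called in every alternative fit. Leaving out any single library kept the 2102 EP response between 1.28 and 1.50 and that of TCam-2 between -2.62 and -2.36.

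CRABP2 (ENSG00000143320, chr1:156699606-156705816, minus strand) was the gene with the widest range over the groups. Its levels were 46.3, 43.9 and 35.2 CPM in 2102 EP with DMSO and 21.8, 50.4 and 51.9 CPM with I-BRD9. In TCam-2 they were 3.54, 3.40 and 3.18 CPM with DMSO and 1.78, 0.841 and 2.44 CPM with I-BRD9. Every 2102 EP library lay far above every TCam-2 library. TCam-2 was lower by -3.63 ± 0.37 with DMSO (12.3-fold, adjusted p = 7.26e-06) and by -4.60 ± 0.40 with I-BRD9 (24.3-fold, adjusted p = 2.33e-06). The response to I-BRD9 was -0.01 ± 0.29 in 2102 EP (adjusted p = 0.991), where the treated libraries lay on both sides of the DMSO libraries. In TCam-2 the groups did not overlap and the response was -0.99 ± 0.52 (adjusted p = 0.186). The size of the 2102 EP response and the calls of the other 2 values changed without the library that stood apart, 2102 EP, I-BRD9, replicate 1, at 21.8 CPM. Without it the 2102 EP response was 0.31 (adjusted p = 0.129). The TCam-2 response stayed at -0.99, with a standard error of 0.27 in place of 0.52 and an adjusted p of 0.00452. The difference between the responses was -1.30 (adjusted p = 0.00429), against -0.98 ± 0.59 (adjusted p = 0.344) with it.

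STRA6 (ENSG00000137868, chr15:74179466-74212267, minus strand) fell in TCam-2. Its levels there were 4.13, 4.03 and 4.65 CPM with DMSO and 1.68, 2.28 and 2.44 CPM with I-BRD9, without overlap. In 2102 EP they were 4.46, 6.60 and 4.86 CPM with DMSO and 5.86, 7.51 and 4.57 CPM with I-BRD9, and the groups overlapped. The response was -1.0 ± 0.29 in TCam-2 (adjusted p = 0.0101) and 0.18 ± 0.26 in 2102 EP (adjusted p = 0.636). Without TCam-2, I-BRD9, replicate 1, the fall was -0.86 with an adjusted p of 0.0557. The difference between the responses was -1.18 ± 0.39 (adjusted p = 0.0473), and it stayed under the threshold in 4 of 19 alternative fits, with adjusted p from 0.0276 to 0.134. Among the fits that each left out 1 library it was called in the fits without 2102 EP, DMSO, replicate 2 and without 2102 EP, I-BRD9, replicate 3, and was not called when any of the other 10 libraries was left out. The lines were not called different with DMSO (-0.31 ± 0.27, adjusted p = 0.318), and TCam-2 was lower with I-BRD9 (-1.49 ± 0.28, adjusted p = 8.49e-05). Exons of STRA6 overlap CCDC33 on the opposite strand, which had 362 counts over the 12 libraries against 460 for STRA6, but CCDC33 does not cover the 3′ end of STRA6.

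DHRS3 (ENSG00000162496, chr1:12567910-12617731, minus strand) was higher in TCam-2 and fell there with I-BRD9. The TCam-2 levels were 47.1, 40.9 and 39.2 CPM with DMSO and 30.2, 30.9 and 25.4 CPM with I-BRD9. In 2102 EP they were 16.8, 16.3 and 17.9 CPM with DMSO and 14.7, 15.0 and 12.4 CPM with I-BRD9. The treated libraries lay below the DMSO libraries in both lines, and all TCam-2 libraries lay above all 2102 EP libraries. The response was -0.56 ± 0.12 in TCam-2 (1.47-fold, adjusted p = 0.0011) and -0.27 ± 0.14 in 2102 EP, which was not called (adjusted p = 0.12). The difference between the responses was -0.28 ± 0.18 (adjusted p = 0.354). TCam-2 was higher by 1.32 ± 0.13 with DMSO (2.49-fold, adjusted p = 5.77e-09) and by 1.04 ± 0.13 with I-BRD9 (2.05-fold, adjusted p = 3.87e-07).

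CYP26A1, a gene that retinoic acid strongly induces in most cells (ENSG00000095596, chr10:93073475-93077890, plus strand), was barely detected. The 3 libraries of a group held 3 counts in 2102 EP with DMSO, 3 with I-BRD9, 11 in TCam-2 with DMSO and 0 with I-BRD9. In TCam-2 with DMSO the levels were 0.236, 0.637 and 0.367 CPM, and each treated TCam-2 library was at 0. Against a floor of 3 counts over the group, treated TCam-2 was at least 3.81-fold lower, taking the 11 counts as exact. With the counting error of both groups, the lower 95% bound was 2.61-fold. In the edgeR fit without the filter the fall had an adjusted p of 0.047, over 32283 genes. The difference between the responses of the lines in that fit was -4.81 ± 2.35 and was not called (adjusted p = 0.291). The ratio of I-BRD9 to DMSO in 2102 EP was 0.953 (95% counting interval 0.128 to 7.12), which leaves a change of several fold in either direction undetectable at this depth.

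**Figure D2:**
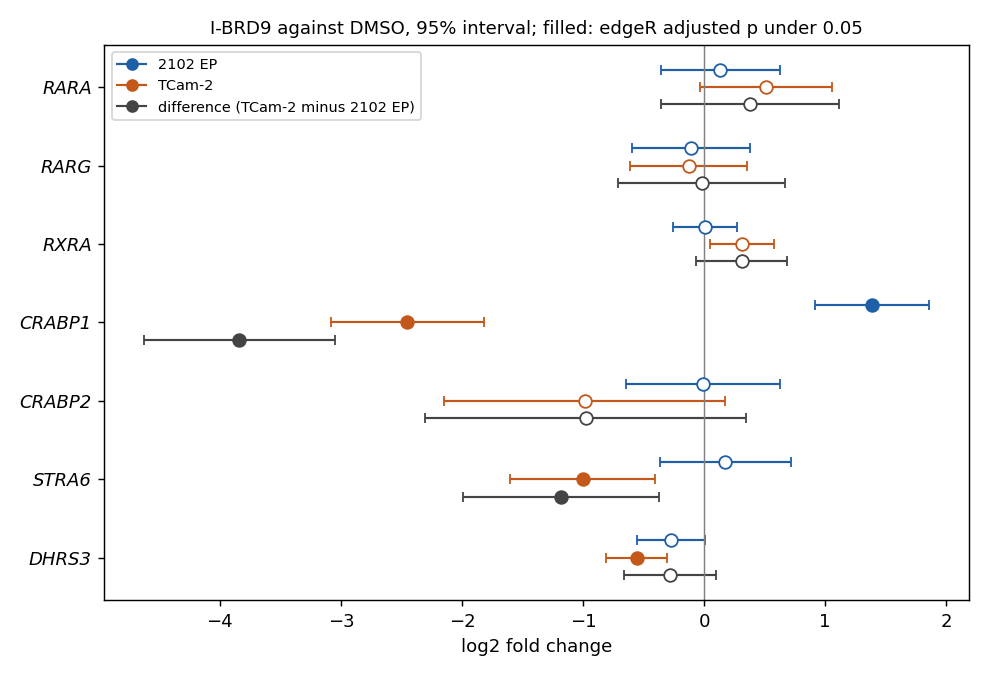
Response to I-BRD9 (log2 fold change against DMSO, points, with 95% intervals, lines) of the 7 tested genes in 2102 EP and in TCam-2. The difference between these responses (TCam-2 minus 2102 EP) is drawn beside them. Filled points had an adjusted p under 0.05 by edgeR. CRABP1 lies at 1.39 in 2102 EP and -2.45 in TCam-2, STRA6 and DHRS3 lie below 0 in TCam-2 by more than their intervals, and RARG lies near 0 in both.

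By comparison, I-BRD9 changed 1 of the 7 tested genes in 2102 EP, upwards, where 36.8% of all tested genes were called (18.2% upwards and 18.6% downwards). In TCam-2 it changed 3, all downwards, where 31.8% were called (15.3% upwards and 16.5% downwards). A count of 1 of 7 lies below the share of all genes and a count of 3 of 7 lies near it, so neither is a result about these genes as a set. The groups did not overlap for 2 of the 7 in 2102 EP (46.3% of all tested genes) and for 6 in TCam-2 (45.7%). The median response was 0.00 in 2102 EP and -0.56 in TCam-2, beside 0.00 and 0.01 for all tested genes. The responses of the lines differed for 2 of 7, CRABP1 and STRA6, both in the negative direction, with 13.1% called among all genes (7.19% negative and 5.9% positive). Between the lines, 3 of 7 were called with DMSO (62.6% of all genes) and 5 of 7 with I-BRD9 (62.2%), and the groups did not overlap for the same numbers (67.6% and 66.3% of all genes). The 3 were RARA and CRABP2, lower in TCam-2 (30.8% of all genes), and DHRS3, higher (31.7%). With I-BRD9 CRABP1 and STRA6 were lower as well, and 31.1% of all genes were called in each direction. The comparisons within and between the lines share libraries.

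**Figure D3:**
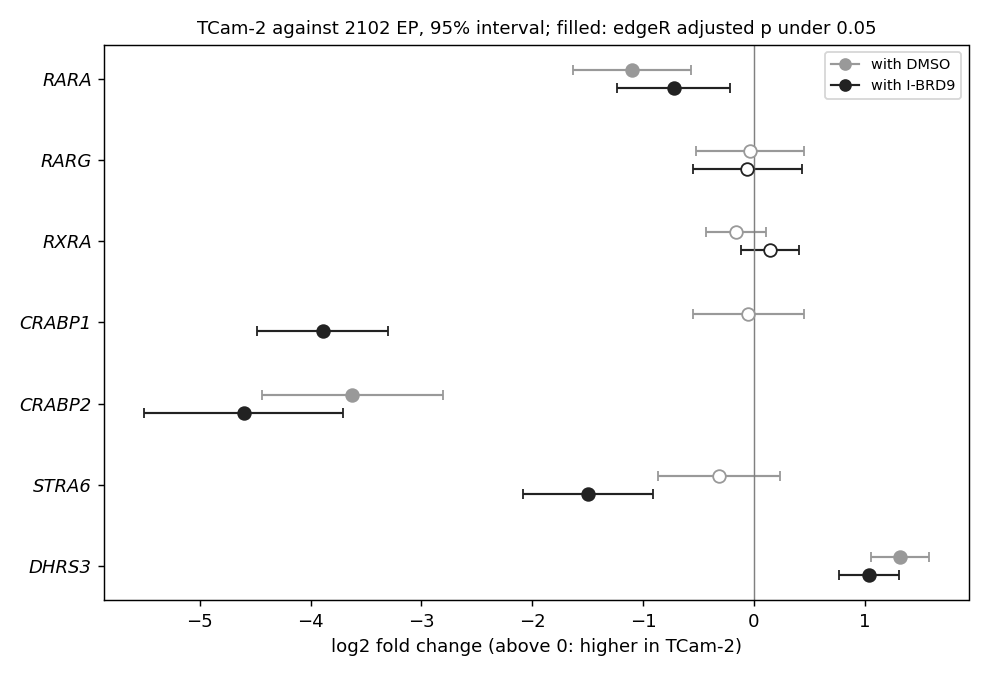
Difference between the lines (log2 fold change, TCam-2 against 2102 EP, points, with 95% intervals, lines) of the 7 tested genes with DMSO and with I-BRD9. CRABP2 and RARA lie below 0 and DHRS3 above 0 under both treatments, and CRABP1 lies at -0.05 with DMSO and -3.89 with I-BRD9.

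Genes whose pattern over the 12 libraries was most like that of 4 genes with a wide range were found by the root mean square difference of centred log2 CPM, among about 9585 genes. Nearest to CRABP1 were KCNK5 (0.42), a potassium channel, VIM (0.44), the intermediate filament vimentin, and MBNL3 (0.58), a splicing regulator. VIM had means of 148 CPM in 2102 EP with DMSO, 404 CPM with I-BRD9, 93.9 CPM in TCam-2 with DMSO and 17.8 CPM with I-BRD9. Nearest to CRABP2 were WFDC2 (0.42), CALB1 (0.49) and CCNJL (0.53). DHRS3 was most like COL26A1 (0.11), PAIP1 (0.12) and RASAL2 (0.13), and STRA6 most like POLR3G (0.21), TRIAP1 (0.22) and GINS4 (0.22).

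The other genes of the pathway were read from lists. Of 2 other retinoid receptors, RXRB was tested and was not called in any comparison, and RXRG had at most 5 counts in a group. Both other retinoic acid hydroxylases, CYP26B1 and CYP26C1, were below the filter. Of 22 enzymes of retinol and retinal, 12 were tested. In 2102 EP 3 rose and 2 fell, near the 36.8% called among all genes, and in TCam-2 1 rose and 1 fell, below the 31.8% called. The median response of the 12 was 0.28 in 2102 EP and -0.11 in TCam-2, beside 0.00 and 0.01 for all genes. DGAT1, which can esterify retinol, rose in 2102 EP from 9.22 ± 0.51 to 23.2 ± 4.3 CPM (1.32 ± 0.18, adjusted p = 5.05e-06). RDH13 and RDH14, retinal reductases, rose by 0.57 ± 0.15 (adjusted p = 0.00467) and 0.32 ± 0.11 (adjusted p = 0.0324), the call of RDH14 being lost without any 1 of 5 of the 6 libraries of 2102 EP (adjusted p up to 0.107; it held without I-BRD9 replicate 1). ADH5 fell in 2102 EP by -0.54 ± 0.10 (adjusted p = 0.000247), and ALDH1A3, which makes retinoic acid from retinal, fell from 2.85 to 1.20 CPM (-1.25 ± 0.35, adjusted p = 0.00753). In TCam-2 RETSAT, which saturates retinol, rose by 0.49 ± 0.14 (adjusted p = 0.00881), and ADH5 was at -0.27 ± 0.10 with an adjusted p of 0.0498 that ranged up to 0.175 over the alternatives. The responses differed between the lines for 2 of the 12, near the 13.1% of all genes. These were RDH13 (-0.88 ± 0.20, adjusted p = 0.00451) and DGAT1 (-0.94 ± 0.25, adjusted p = 0.0157). With DMSO 4 of the 12 enzymes were higher in TCam-2 (RDH11, RDH13, DGAT1 and ALDH1A3) and 3 lower (RDH12, ADH5 and LRAT). Of all genes 31.7% were higher and 30.8% lower, so these counts are no result about the enzymes as a set. LRAT, which stores retinol as esters, was at 10.4 CPM in 2102 EP and 2.31 CPM in TCam-2.

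Of 9 other retinoid carriers, 3 were tested. With DMSO, FABP5, which can carry retinoic acid to another receptor, was lower in TCam-2 by -2.03 ± 0.07 (adjusted p = 2.38e-16), and RBP7 by -1.29 ± 0.45 (adjusted p = 0.0164). FABP5 fell with I-BRD9 in both lines, by -0.47 ± 0.07 in 2102 EP (adjusted p = 1.45e-05) and -0.61 ± 0.08 in TCam-2 (adjusted p = 1.38e-06). Its counts were not whole in any of the 12 libraries, so reads were shared with other genes and its values are uncertain. RBP7 was not called with I-BRD9 in either line.

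All 22 corepressors and coactivators were tested. In 2102 EP 5 rose (NRIP1, LCOR, TBL1X, GPS2 and ASXL1) and 4 fell (NCOA2, HDAC3, TBL1XR1 and CARM1). In TCam-2 3 rose (NCOA1, GPS2 and ASXL1) and 5 fell (PRAME, PRMT1, CARM1, HDAC3 and CREBBP), of which CREBBP was not called in 12 of 20 alternative fits (adjusted p up to 0.13). These counts lie near the shares of all genes called, 36.8% in 2102 EP and 31.8% in TCam-2, and the median response was -0.07 and -0.12. The coactivator NCOA2 fell in 2102 EP from 11.1 ± 2.4 to 4.69 ± 1.48 CPM (-1.21 ± 0.21, adjusted p = 8.44e-05) and was at -0.20 in TCam-2, with a difference of 1.01 ± 0.27 (adjusted p = 0.0142). The corepressor NRIP1 rose in 2102 EP from 6.54 ± 0.25 to 13.4 ± 2.4 CPM (1.03 ± 0.21, adjusted p = 0.000411), with a difference of -1.01 ± 0.29 (adjusted p = 0.0238). HDAC3, TBL1XR1 and GPS2 belong to the NCOR complex: HDAC3 was at -0.60 and TBL1XR1 at -0.46, both called in 2102 EP, and GPS2, whose reads were shared in 12 libraries, was at 0.82. In TCam-2 NCOA1 rose by 0.60 ± 0.14 (adjusted p = 0.00251, reads shared in 7 libraries), and PRAME, a repressor of RAR signalling, fell by -0.51 ± 0.13 (adjusted p = 0.00561). ASXL1 rose in both lines, by 0.45 in 2102 EP and 0.33 in TCam-2. In TCam-2 it was not called without DMSO replicate 3 (adjusted p = 0.11) or I-BRD9 replicate 1 (adjusted p = 0.0539).

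Of 33 genes known to respond to retinoic acid, 17 were tested, 4 rose and 3 fell in 2102 EP, and 3 fell in TCam-2. The first count lies near the 36.8% called among all genes and the second below the 31.8%. The median response of the 17 was 0.64 in 2102 EP and -0.05 in TCam-2. CDX1, a homeobox gene, rose in 2102 EP from 4.14 ± 0.82 to 9.27 ± 1.10 CPM (1.17 ± 0.29, adjusted p = 0.00327) and fell in TCam-2 from 1.13 ± 0.57 to 0.178 ± 0.103 CPM (-2.54 ± 0.57, adjusted p = 0.00132). NEDD9, a focal adhesion scaffold, rose in 2102 EP from 2.93 ± 0.36 to 5.51 ± 0.44 CPM (adjusted p = 0.000623) and fell in TCam-2 from 36.2 ± 3.2 to 21.0 ± 1.6 CPM (adjusted p = 0.000107). For CDX1 and NEDD9 the responses differed, by -3.71 ± 0.63 (adjusted p = 0.000247) and -1.70 ± 0.24 (adjusted p = 1.96e-05). NRIP1, which both lists hold, also rose in 2102 EP. HOXB1, an early retinoic acid target of the hindbrain, fell in 2102 EP from 13.7 ± 1.5 to 4.66 ± 0.32 CPM (-1.55 ± 0.27, adjusted p = 0.000114) and had 0 counts in TCam-2 with DMSO. RARRES2 fell in 2102 EP from 3.93 to 1.86 CPM (adjusted p = 0.0439). In TCam-2 the third to fall was PLAAT4, with 11 counts with DMSO and 1 with I-BRD9, a ratio of 11.4 (95% counting interval 1.66 to 492). Between the lines with DMSO, 6 of the 17 were higher in TCam-2 and 6 lower, near the 31.7% and 30.8% of all genes.

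**Figure D4:**
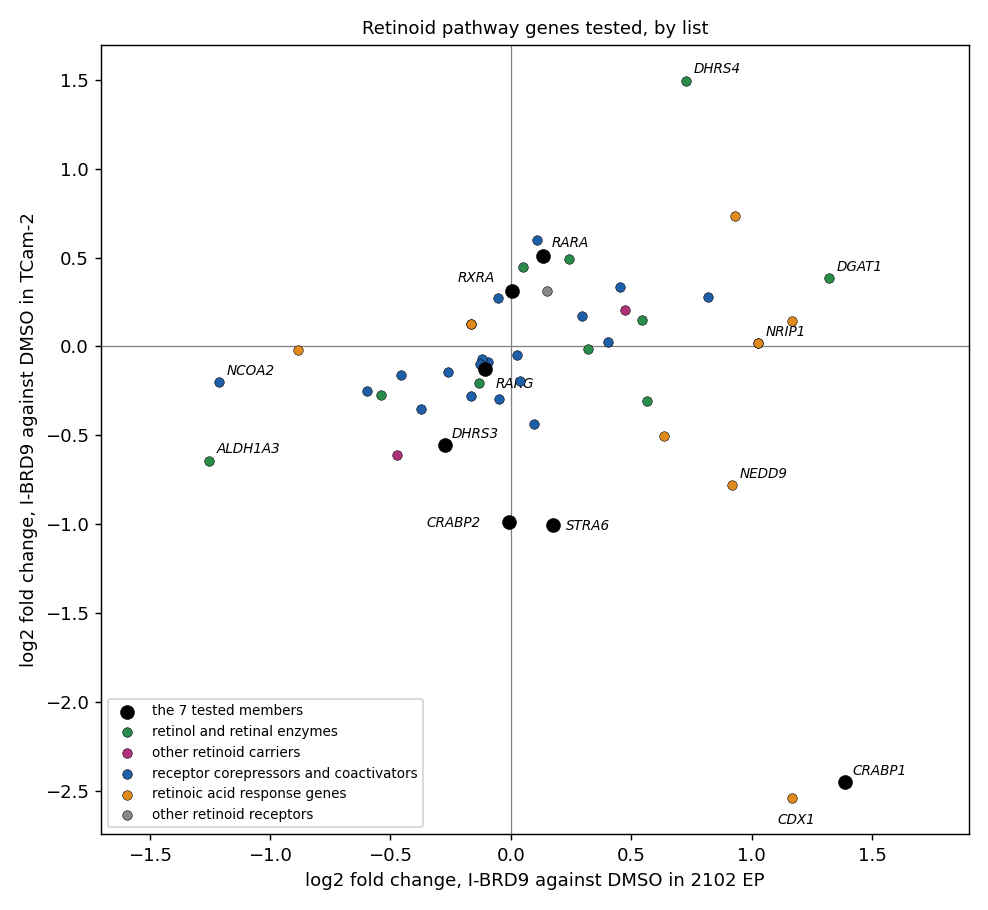
Response to I-BRD9 (log2 fold change against DMSO) in 2102 EP (horizontal) and TCam-2 (vertical) of 47 of the 60 tested genes of the lists and the 9 genes, those with a mean of at least 1 CPM in the higher group of each line. CRABP1 and CDX1 lie at the lower right, and most other genes lie within 1 of 0 on both axes.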

How the data were processed

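Total RNA (RNeasy kit) was made into QuantSeq 3′ libraries, per the labels' protocols. The authors deposited a table of estimated counts, 1 row a gene. Salmon 1.9.0, STAR 2.7.11b, DESeq2, R 4.2.0 and Trim Galore are named with the build GRCh38 per the submitters' processing notes. Their order, the gene models and any use of strand were not given in the sources used here. Overlapping genes were checked for the 9 genes but not for the lists.

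The estimated counts were rounded and tested in R 4.3.3 with edgeR 4.0.16 (TMM, filterByExpr by group, robust glmQLFit and glmQLFTest) in 1 model of 4 group means over 12 libraries, with 8 residual degrees of freedom and no replicate block. The biological coefficient of variation was 0.127. Benjamini-Hochberg adjustment was over the 15614 genes tested, within each of 5 comparisons. Replicates correlated at r = 0.971 to 0.981 and differed by more than sampling noise (chi-square per degree of freedom 4.78 to 12.3), so each counted as 1. Counts more than 0.01 from a whole number mark shared reads. Library totals limit precision to the floors and counting intervals given. The scripts were tested on simulated data.

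The text names the 9 genes, list genes called in an I-BRD9 comparison with at least 5 CPM in the higher group (at most 6 per list and comparison), and the 3 genes most like each of the 4 genes with the widest range, among genes with at least 10 CPM and log2 CPM with a prior count of 2. ALDH1A3, RARRES2, PLAAT4, LRAT, LCOR, TBL1X, RDH11, RDH12, RBP7, RXRB, RXRG and the markers named were chosen after their values were seen, as were the NCOA2 value in TCam-2 and the names that complete counts of 5 or fewer. Some genes that this rule names are not reported here. The 9 genes and the 10 lists were chosen with earlier results of these data known. Coordinates are from GENCODE 29 (GRCh38), which holds 58228 of the 63241 identifiers (92.1%). Alternatives were upper-quartile scaling, no scaling, DESeq2 1.42.0, limma 3.58.1 (voom), no filter, a block by replicate number or library code, fits on the 6 libraries compared, and each library left out.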

Additional observations from a re-analysis of the deposited data

Results flagged for a closer look

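The response of CRABP1 to I-BRD9 differed between the lines by -3.84 ± 0.38 on the log2 scale (TCam-2 minus 2102 EP, adjusted p = 1.8e-07 by edgeR), as tested by the interaction term of the model, with higher values in 3 of 3 treated 2102 EP libraries and lower values in 3 of 3 treated TCam-2 libraries. The response of STRA6 differed by -1.18 ± 0.39 (adjusted p = 0.0473) by the same test, with the treated libraries lower in TCam-2 and overlapping those with DMSO in 2102 EP.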

How the results depend on the processing

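CRABP1 in both lines, DHRS3 in TCam-2 and the called line differences kept their direction and stayed past the threshold under all alternatives run. The count of the 9 genes called in TCam-2 was 5 rather than 3 in the fit on the 6 libraries compared, where RXRA (0.31, adjusted p = 0.0432) and CRABP2 (-0.99, adjusted p = 0.0391) passed as well. RXRA also passed with upper-quartile scaling (0.34, adjusted p = 0.0428), without scaling, and without 2102 EP, I-BRD9, replicate 3. Other fits changed the count in TCam-2 as well. CRABP2 passed without 2102 EP, I-BRD9, replicate 1, and CYP26A1 passed without the filter. STRA6 was lost without TCam-2, I-BRD9, replicate 1. The count of responses that differed between the lines was 1 rather than 2 with DESeq2, limma voom, no filter on low counts, the replicate block and the library-code block, since STRA6 then had an adjusted p of 0.0597, 0.0563, 0.0799, 0.0549 and 0.0515, and it was 1 to 2 when each library was left out. The cause of these shifts was not tested. Without the filter the adjustment was over 32283 genes. The STRA6 difference was then -1.18 with a standard error of 0.43, against 0.39 in the main fit.

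Values near 0 that were never called changed sign. The CRABP2 response in 2102 EP was 0.0351 with upper-quartile scaling, 0.0635 without scaling, 0.0024 without the filter and 0.0095 in the fit on 6 libraries. The RXRA response in 2102 EP was -0.003 with DESeq2 and -0.0041 with voom, and the RARG difference was 0.0232 with voom. With 1 library left out, the responses in 2102 EP ranged from -0.19 to 0.31 for CRABP2, -0.0581 to 0.12 for RXRA and -0.0245 to 0.36 for STRA6. RARG ranged from -0.28 to 0.0208 in TCam-2, -0.17 to 0.13 for the difference, and -0.19 to 0.11 and -0.14 to 0.0219 between the lines with DMSO and I-BRD9. The CRABP1 line difference with DMSO ranged from -0.15 to 0.12.

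Replicate numbers did not pair the samples in 2102 EP: deviations of same-numbered libraries correlated at -0.119 to 0.0961, and not every library correlated best with its own number. In TCam-2 these correlations were weak but all positive, at 0.0338 to 0.16. Each TCam-2 library there correlated best with its own number except I-BRD9 replicate 2 (0.0481 with DMSO replicate 3, 0.0338 with DMSO replicate 2). The replicate block moved the STRA6 difference, ADH5 (adjusted p = 0.0715) and CREBBP (adjusted p = 0.069) in TCam-2 above the threshold and changed no other call followed through the alternatives. These calls were also lost with the library-code block (adjusted p = 0.0515, 0.0561 and 0.0613 by edgeR), with DESeq2 and with limma voom. Their loss is thus not particular to a block by replicate number. Scaling moved the median of all genes by less than 0.1. Depth limits RARB and CYP26A1.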
